A study of Homo sapiens with 12 samples.

Results

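The 36 genes described here encode the enzymes that build cholesterol and fatty acids, the proteins that sense sterols, and a few proteins that move sterols out of the cell or remove lipoprotein receptors. They were chosen by name, for their place in these pathways, with earlier results of these data known, and were read through the gene symbols of the array platform's probe annotation. No probe was listed under FDFT1 or ACSL3, which were not analysed here, and the probe of STARD4 was not above background on any of the 12 arrays. The other 33 genes had a probe with a detection p under 0.05 on at least 3 arrays and were tested together with all other genes that met that filter, 11785 in all. Of these 33, 30 were detected on every array. FADS2 was detected on 4 arrays and on none of the WT group, and SREBF2 and ABCG1 were each missed on several arrays, so their values lie near background.

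Cholesterol is made from acetyl-CoA through mevalonate, isoprenoid diphosphates, squalene and lanosterol, and fatty acids are made from the same acetyl-CoA by carboxylation, chain building, elongation and desaturation. When sterols are scarce in the endoplasmic reticulum, SCAP escorts the SREBP transcription factors (encoded by SREBF1 and SREBF2) to the Golgi, where they are cut and released to switch on both pathways. INSIG proteins hold SCAP back when sterols are plentiful, and oxidised sterols then activate the liver X receptors (LXR), which switch on the exporters ABCA1 and ABCG1 and the ubiquitin ligase MYLIP.

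Total RNA came from HCT116, a human colorectal carcinoma cell line grown in DMEM with FCS, and was read on 1-colour Illumina bead arrays. The 4 groups of 3 biological replicates were untreated parental cells (WT), parental cells given an ATM inhibitor (WT+ATMi), cells in which Wip1 was depleted by an shRNA (Wip1SH), and depleted cells given the inhibitor (Wip1SH+ATMi). The inhibitor was used at 10 µM for 3 days and renewed daily. ATM is a kinase activated by breaks in DNA, and Wip1, the product of PPM1D, is a phosphatase that opposes it. No control hairpin and no vehicle is named for the groups, and the labels do not say whether the depleted cells are 1 clone, so a difference of Wip1SH from WT can include any other difference between the lines. A difference with the inhibitor can likewise include any effect of a vehicle.

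The array set as a whole had the following properties. PPM1D lay at 10.28 to 10.43 (log2 intensity) on the WT arrays and at 8.43 to 8.87 on the Wip1SH arrays, a log2 fold change of -1.66 ± 0.10 (adjusted p = 2.57e-06). EPCAM, KRT8, KRT18, KRT19 and CDH1, markers of carcinoma epithelium, were detected on all 12 arrays, while the brush border gene VIL1 was detected on none. Markers of leukocytes (PTPRC), endothelium (PECAM1) and adipocytes (ADIPOQ and PLIN1) were detected on none, COL1A2 on at most 1 and ALB on at most 7, whereas the fibroblast marker COL1A1 was detected on all 12. The markers moved with the groups: in WT+ATMi against WT, KRT8 was at -0.56 ± 0.10 (adjusted p = 0.00184), KRT18 at -1.06 ± 0.20 (adjusted p = 0.00337) and CDH1 at 0.24 ± 0.08 (adjusted p = 0.0489), and in Wip1SH+ATMi against Wip1SH, KRT8 was at -0.56 ± 0.10 (adjusted p = 0.00222), KRT18 at -0.83 ± 0.20 (adjusted p = 0.0125), KRT19 at -0.67 ± 0.08 (adjusted p = 0.000353) and COL1A1 at 0.55 ± 0.10 (adjusted p = 0.00261). In Wip1SH against WT, KRT8 was at -0.41 ± 0.10 (adjusted p = 0.00759), COL1A1 at -0.50 ± 0.10 (adjusted p = 0.00273) and EPCAM at 0.28 ± 0.08 (adjusted p = 0.0231), and in Wip1SH+ATMi against WT+ATMi, KRT8 was at -0.41 ± 0.10 (adjusted p = 0.0111) and KRT19 at -0.46 ± 0.08 (adjusted p = 0.00243). The part of these marker differences in the results below was not tested. The number of probes detected per array moved with the groups, from 17650 to 17929 in WT, 18568 to 18961 in Wip1SH, 18723 to 19654 in WT+ATMi and 19505 to 20408 in Wip1SH+ATMi, and its part in the results below cannot be told apart from that of the groups. With 3 arrays in a group the standard error of a difference had a median of 0.11 on the log2 scale. In bulk RNA, fewer cells expressing a gene and less RNA per cell cannot be told apart.

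Values below are normalized log2 intensities, in which a difference of 1 is a doubling, listed in the order of replicates 1 to 3. Differences are log2 fold changes ± the standard error from a linear model of all 12 arrays (limma), with Benjamini-Hochberg adjusted p-values over the 11785 genes and a threshold of 0.05. The words rose and fell are kept for differences past that threshold. Mean levels of the 33 genes over the 12 arrays ran from 5.36 for FADS2, brighter than 2.34% of the genes tested, to 13.08 for FASN, at the percentile 97.7. Levels of different probes are not compared further, since each probe has its own brightness.

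Promoter sequences are shown because SREBP proteins are known to control both pathways through them. RefSeq windows of 300 bases (GRCh38.p14), from 250 before to 50 after an annotated start, were found for 29 of the 33 genes, 41 windows in all. Both strands were searched for TCACNCCAC, a sterol regulatory element, TCACGTGA, the E-box form that SREBP proteins also bind, CCAAT, the NF-Y motif, and GGGCGG, the Sp1 motif, and no motif contains another. The sterol regulatory element was in 1 window (SREBF2) and in 1.13% of all 35116 windows, and the E-box in 1 (INSIG1) and in 0.98% of all. CCAAT was in 24 of the 41 windows, or 58.5%, and in 34.6% of all windows, and GGGCGG in 87.8% and 45%. Some genes, such as ACLY, have overlapping windows, so a match can count more than once. By gene, CCAAT was found in 20 and GGGCGG in 28 of the 29, and the share by gene over all genes was not computed. All windows include those of genes not tested here, and the differences in share were not tested. INSIG1 and SREBF2 are printed for their SREBP-type matches, and MVK and MSMO1, enzymes of both ends of sterol synthesis, for their 5 and 4 CCAAT matches. Capitals mark matches to the first 3 motifs on either strand, and each line runs 5′ to 3′ on the strand of the gene, which is the plus strand for all 4.
INSIG1, chr7:155297628-155297927: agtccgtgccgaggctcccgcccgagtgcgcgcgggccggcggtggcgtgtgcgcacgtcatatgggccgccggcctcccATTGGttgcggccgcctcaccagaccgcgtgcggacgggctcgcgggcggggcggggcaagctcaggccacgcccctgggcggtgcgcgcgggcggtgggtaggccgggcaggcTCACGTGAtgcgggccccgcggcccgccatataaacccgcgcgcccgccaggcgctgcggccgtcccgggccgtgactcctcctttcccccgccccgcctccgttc
SREBF2, chr22:41832855-41833154: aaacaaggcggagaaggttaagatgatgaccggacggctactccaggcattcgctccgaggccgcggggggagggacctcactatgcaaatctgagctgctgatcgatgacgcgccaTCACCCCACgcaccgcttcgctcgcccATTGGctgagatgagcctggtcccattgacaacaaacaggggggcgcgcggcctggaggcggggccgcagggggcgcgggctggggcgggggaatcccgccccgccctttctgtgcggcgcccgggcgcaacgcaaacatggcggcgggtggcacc
MVK, chr12:109573544-109573843: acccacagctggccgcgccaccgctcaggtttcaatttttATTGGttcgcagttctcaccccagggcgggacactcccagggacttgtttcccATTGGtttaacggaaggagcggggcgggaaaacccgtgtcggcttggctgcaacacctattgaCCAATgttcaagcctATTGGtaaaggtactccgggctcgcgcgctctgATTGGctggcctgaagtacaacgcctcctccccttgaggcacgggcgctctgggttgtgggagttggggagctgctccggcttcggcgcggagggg
MSMO1, chr4:165327419-165327718: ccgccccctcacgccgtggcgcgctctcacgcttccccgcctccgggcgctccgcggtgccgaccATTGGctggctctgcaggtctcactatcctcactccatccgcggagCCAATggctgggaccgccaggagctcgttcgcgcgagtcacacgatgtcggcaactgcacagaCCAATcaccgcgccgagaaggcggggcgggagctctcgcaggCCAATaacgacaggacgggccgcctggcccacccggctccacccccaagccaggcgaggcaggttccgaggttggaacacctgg
In INSIG1 the E-box began 56 bases before the start and a CCAAT in reverse (ATTGG) 170 before it. In SREBF2 the sterol regulatory element began 133 and the reversed CCAAT 106 bases before the start. A match describes the letters of the window and is not a measured site, and no binding was measured here.

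SCAP, the escort of the SREBP proteins, gave 9.19, 9.15 and 9.38 in WT, 9.98, 9.78 and 9.96 in WT+ATMi, 8.77, 9.07 and 8.99 in Wip1SH and 9.90, 9.97 and 9.86 in Wip1SH+ATMi. All 6 arrays with the inhibitor lay above all 6 without it. With the inhibitor SCAP rose by 0.67 ± 0.10 (adjusted p = 0.000821) in WT and by 0.97 ± 0.10 (adjusted p = 0.000115) in Wip1SH. These rises were 1.59-fold and 1.96-fold. Wip1SH was below WT by a small margin, with a log2 fold change of -0.29 ± 0.10 (adjusted p = 0.0405). That fall lost its call without any 1 of 7 arrays (WT replicates 1 and 3, WT+ATMi replicate 3, Wip1SH replicates 1 and 3, Wip1SH+ATMi replicates 1 and 3; adjusted p up to 0.156). Under the inhibitor the lines did not differ past the threshold, at 0.01 ± 0.10 (adjusted p = 0.974) with a 95% confidence interval of -0.21 to 0.22.

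INSIG1, which retains SCAP in the endoplasmic reticulum and is itself an SREBP target, gave 8.31, 8.45 and 8.02 in WT, 8.95, 9.0 and 9.07 in WT+ATMi, 8.13, 8.11 and 8.30 in Wip1SH and 8.36, 8.49 and 8.47 in Wip1SH+ATMi. The 3 WT+ATMi arrays stood above the 9 others. INSIG1 rose 1.68-fold with the inhibitor in WT, by 0.75 ± 0.11 (adjusted p = 0.00067), and was 0.26 ± 0.11 (adjusted p = 0.103) in Wip1SH, where the groups did not overlap but the threshold was missed. It was lower in Wip1SH+ATMi than WT+ATMi by 0.57 ± 0.11 (adjusted p = 0.00304), while untreated Wip1SH and WT differed by -0.08 ± 0.11 (adjusted p = 0.605). A dim second INSIG1 probe was detected on the 3 WT+ATMi arrays and on no other array. It met the detection filter only through that group, where more probes were detected than in WT. It is therefore no separate support for the rise. INSIG2, its relative, showed no difference past the threshold in any comparison, with log2 fold changes from -0.07 to 0.19.

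SREBF1, the source of the SREBP forms that drive fatty acid genes, gave 8.28, 8.33 and 8.42 in WT, 8.71, 8.61 and 8.55 in WT+ATMi, 8.15, 7.89 and 8.05 in Wip1SH and 8.43, 8.56 and 8.66 in Wip1SH+ATMi. Both untreated groups lay below both inhibitor groups, and Wip1SH below WT. By the tested probe, SREBF1 rose with the inhibitor in WT (0.28 ± 0.09, adjusted p = 0.0408) and in Wip1SH (0.52 ± 0.09, adjusted p = 0.00243), and was lower in Wip1SH than in WT (-0.31 ± 0.09, adjusted p = 0.0218). The other detected SREBF1 probe, not tested, was at -0.26, -0.01 and -0.19 in these comparisons, and with the mean of both probes all 3 calls were lost. The rise in WT was also lost without any WT+ATMi array or WT replicate 1 or 2 or Wip1SH replicate 3 (adjusted p up to 0.132). The fall in Wip1SH was lost without WT replicate 3 or Wip1SH replicate 2 (adjusted p up to 0.0839). SREBF2, the source of the form that drives cholesterol genes, gave 5.83, 5.40 and 5.46 in WT, 5.72, 5.53 and 5.75 in WT+ATMi, 5.53, 5.72 and 6.18 in Wip1SH and 5.88, 5.67 and 5.71 in Wip1SH+ATMi. Its arrays overlapped in all 5 comparisons of groups, with log2 fold changes from -0.05 to 0.25, at a level where it was detected on 1 of 3 WT arrays, 2 of 3 WT+ATMi and Wip1SH arrays and all 3 Wip1SH+ATMi arrays.

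Among the fatty acid enzymes, ACACA, the carboxylase that commits acetyl-CoA to fatty acids, gave 8.83, 8.88 and 8.90 in WT, 9.51, 9.58 and 9.40 in WT+ATMi, 8.71, 8.72 and 8.81 in Wip1SH and 9.16, 9.05 and 8.99 in Wip1SH+ATMi. No groups overlapped, in the rising order Wip1SH, WT, Wip1SH+ATMi and WT+ATMi. ACACA rose by 0.63 ± 0.08 (adjusted p = 0.000297) in WT and by 0.32 ± 0.08 (adjusted p = 0.0108) in Wip1SH, and was lower in Wip1SH+ATMi than WT+ATMi by 0.43 ± 0.08 (adjusted p = 0.00224). The other detected ACACA probe was at 0.56, 0.67 and -0.30. In Wip1SH against WT it was at -0.42, where the tested probe was at -0.12.

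FASN, the fatty acid synthase, gave 13.06, 13.12 and 13.29 in WT, 13.46, 13.55 and 13.65 in WT+ATMi, 12.82, 12.85 and 12.80 in Wip1SH and 12.74, 12.86 and 12.81 in Wip1SH+ATMi. The WT+ATMi arrays were the highest, the WT arrays lay between, and the 6 arrays of both Wip1SH groups covered the same narrow range. FASN rose with the inhibitor in WT (0.40 ± 0.08, adjusted p = 0.00486), while in Wip1SH the difference was -0.02 ± 0.08 (adjusted p = 0.887), with a 95% confidence interval of -0.20 to 0.16. It was lower in Wip1SH than in WT by 0.33 ± 0.08 (adjusted p = 0.0104), and lower in Wip1SH+ATMi than WT+ATMi by 0.75 ± 0.08 (adjusted p = 0.000112), or 1.68-fold. SCD, the desaturase that makes oleate, gave 11.83, 11.93 and 12.04 in WT, 12.45, 12.36 and 12.50 in WT+ATMi, 11.84, 11.80 and 11.81 in Wip1SH and 12.12, 11.99 and 12.12 in Wip1SH+ATMi. WT+ATMi was again highest, and the Wip1SH+ATMi arrays overlapped those of WT. SCD rose by 0.50 ± 0.08 (adjusted p = 0.00106) in WT and by 0.26 ± 0.08 (adjusted p = 0.0306) in Wip1SH. The latter call was lost without any Wip1SH array or without Wip1SH+ATMi replicates 1 or 3 (adjusted p up to 0.0897). Wip1SH+ATMi was below WT+ATMi by 0.36 ± 0.08 (adjusted p = 0.00688).

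LPIN1, a phosphatidate phosphatase of glycerolipid synthesis, gave 7.99, 8.06 and 7.87 in WT, 8.53, 8.30 and 8.49 in WT+ATMi, 8.11, 8.11 and 8.08 in Wip1SH and 8.53, 8.69 and 8.47 in Wip1SH+ATMi. Both inhibitor groups stood above both untreated groups. The rise was 0.47 ± 0.09 (adjusted p = 0.00331) in WT and 0.46 ± 0.09 (adjusted p = 0.00367) in Wip1SH, and the lines did not differ past the threshold either without (0.13) or with the inhibitor (0.12). FADS1, a desaturase of polyunsaturated fatty acids, gave 10.32, 10.43 and 10.36 in WT, 10.01, 10.64 and 10.25 in WT+ATMi, 10.29, 10.09 and 10.18 in Wip1SH and 9.80, 9.66 and 9.68 in Wip1SH+ATMi. The 3 Wip1SH+ATMi arrays were below all 9 others. FADS1 fell by 0.47 ± 0.13 (adjusted p = 0.0237) with the inhibitor in Wip1SH, a call lost without Wip1SH replicates 1 or 3 or Wip1SH+ATMi replicates 2 or 3 (adjusted p up to 0.0797), and was -0.07 ± 0.13 (adjusted p = 0.732) in WT. Wip1SH+ATMi was below WT+ATMi by 0.58 ± 0.13 (adjusted p = 0.00877) and below WT by 0.65 ± 0.13 (adjusted p = 0.00216). ACLY, which supplies cytosolic acetyl-CoA, was lower in Wip1SH than in WT by 0.23 ± 0.07 (adjusted p = 0.0263) and in Wip1SH+ATMi than WT+ATMi by 0.27 ± 0.07 (adjusted p = 0.016). The first of these calls was lost without WT replicate 1 or 3, or Wip1SH replicates 2 or 3 (adjusted p up to 0.0859), and the other ACLY probe was at -0.00 and -0.30. The elongase ELOVL6 and the desaturase FADS2 passed the threshold in no comparison, ELOVL6 being nearest in WT+ATMi against WT (0.24 ± 0.08, adjusted p = 0.0502).

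**Figure D1:**
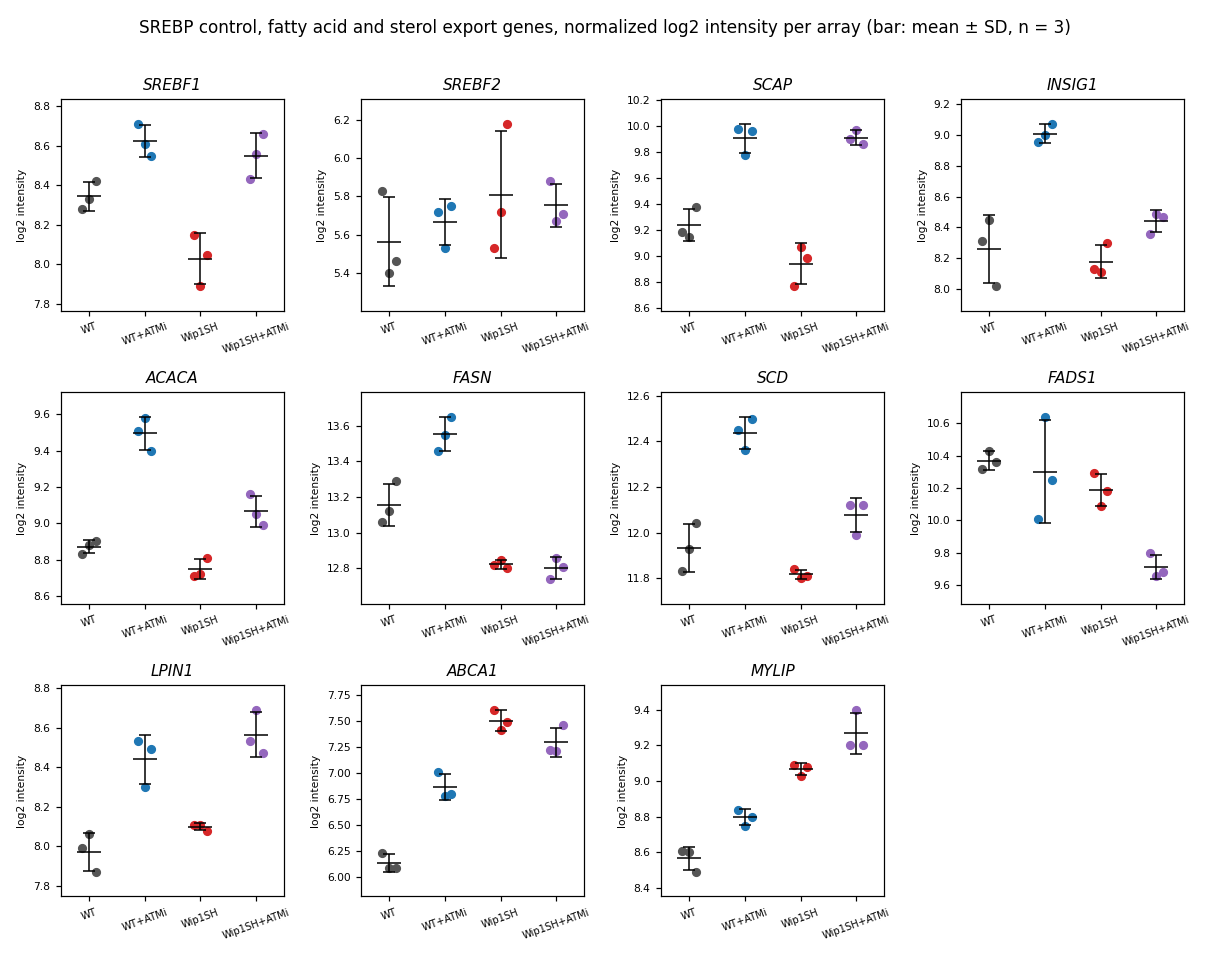
Normalized log2 intensity (vertical axes, each with its own range) on each of the 12 arrays, by group. The genes are those of SREBP control, fatty acid and glycerolipid synthesis, and sterol transport and LXR targets. Black bars mark the mean ± SD of 3 arrays. SCAP, ACACA and LPIN1 were higher in both inhibitor groups than in their untreated groups, FASN was high in WT+ATMi and alike in both Wip1SH groups, and ABCA1 was lowest in WT.

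Among the enzymes of the mevalonate branch, HMGCS1, which makes the HMG-CoA that enters the pathway, gave 8.40, 8.31 and 8.73 in WT, 8.82, 8.62 and 8.96 in WT+ATMi, 8.11, 7.94 and 7.96 in Wip1SH and 8.22, 8.07 and 8.34 in Wip1SH+ATMi. Every Wip1SH array lay below every WT array, and every Wip1SH+ATMi array below every WT+ATMi array. HMGCS1 was lower in Wip1SH by 0.48 ± 0.12 (adjusted p = 0.0135) without and by 0.59 ± 0.12 (adjusted p = 0.00643) with the inhibitor. The inhibitor itself gave 0.32 ± 0.12 (adjusted p = 0.0829) in WT and 0.20 ± 0.12 (adjusted p = 0.268) in Wip1SH. MVK, the mevalonate kinase, gave 6.31, 6.15 and 6.33 in WT, 6.53, 6.89 and 6.65 in WT+ATMi, 6.32, 6.67 and 6.35 in Wip1SH and 6.49, 6.25 and 6.16 in Wip1SH+ATMi. Only WT and WT+ATMi, and WT+ATMi and Wip1SH+ATMi, were free of overlap. MVK rose with the inhibitor in WT by 0.43 ± 0.13 (adjusted p = 0.029), a call lost without WT replicate 1 or 2, or WT+ATMi replicates 2 or 3 (adjusted p up to 0.103). It was lower in Wip1SH+ATMi than WT+ATMi by 0.39 ± 0.13 (adjusted p = 0.048), which was lost without any 1 of 9 arrays (adjusted p up to 0.166, without WT+ATMi replicate 2).

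MVD, which decarboxylates the mevalonate diphosphate, gave 8.36, 8.14 and 8.14 in WT, 7.84, 8.39 and 8.22 in WT+ATMi, 7.37, 7.46 and 7.29 in Wip1SH and 7.70, 7.67 and 7.53 in Wip1SH+ATMi. Both Wip1SH groups stood below both parental groups. MVD was lower in Wip1SH than in WT by 0.84 ± 0.13 (adjusted p = 0.000608), or 1.79-fold, and lower in Wip1SH+ATMi than WT+ATMi by 0.52 ± 0.13 (adjusted p = 0.0126). The latter call was lost without WT+ATMi replicate 2 (adjusted p = 0.0513). FDPS, the farnesyl diphosphate synthase, gave 8.68, 8.91 and 8.78 in WT, 8.64, 8.86 and 8.66 in WT+ATMi, 8.78, 8.31 and 8.54 in Wip1SH and 8.21, 8.56 and 8.29 in Wip1SH+ATMi. The Wip1SH+ATMi arrays were all below those of WT and of WT+ATMi. The difference was -0.44 ± 0.13 (adjusted p = 0.0184) against WT, lost without WT replicate 2 or Wip1SH+ATMi replicates 1 or 3 (adjusted p up to 0.0717), and -0.37 ± 0.13 (adjusted p = 0.0643) against WT+ATMi.

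IDI1, the isomerase of isopentenyl diphosphate, gave 9.06, 8.79 and 8.98 in WT, 9.39, 9.15 and 9.37 in WT+ATMi, 9.0, 9.11 and 9.13 in Wip1SH and 8.98, 8.88 and 9.11 in Wip1SH+ATMi. The 3 WT+ATMi arrays lay above the 9 others. IDI1 rose with the inhibitor in WT by 0.36 ± 0.10 (adjusted p = 0.0207), lost without WT replicate 2 or WT+ATMi replicates 1 or 3 (adjusted p up to 0.0775). PMVK, the kinase after MVK, and the thiolase ACAT2 were lower in Wip1SH+ATMi than WT+ATMi, by 0.37 ± 0.10 (adjusted p = 0.0206) and 0.39 ± 0.09 (adjusted p = 0.0121), as was IDI1 by 0.31 ± 0.10 (adjusted p = 0.0441). The PMVK call was lost without any WT+ATMi array or Wip1SH+ATMi replicates 1 or 3 (adjusted p up to 0.0804), and the IDI1 call without any 1 of 8 arrays (adjusted p up to 0.134, without WT+ATMi replicate 1). Squalene epoxidase (SQLE) passed the threshold in no comparison, with 0.26 ± 0.10 (adjusted p = 0.0826) in WT+ATMi against WT.

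In the lanosterol to cholesterol branch, LSS, which closes squalene epoxide to lanosterol, gave 7.47, 7.67 and 6.90 in WT, 7.71, 7.65 and 7.87 in WT+ATMi, 7.29, 7.05 and 7.04 in Wip1SH and 7.08, 7.26 and 7.23 in Wip1SH+ATMi. WT replicate 3 lay far below the other WT arrays, and the groups free of overlap were WT+ATMi and Wip1SH+ATMi, and WT+ATMi and Wip1SH. LSS was lower in Wip1SH+ATMi than WT+ATMi by 0.55 ± 0.16 (adjusted p = 0.032), a call lost without any 1 of those 6 arrays (adjusted p up to 0.107). TM7SF2, a sterol reductase, gave 10.46, 10.51 and 10.44 in WT, 11.13, 11.16 and 11.13 in WT+ATMi, 10.59, 10.49 and 10.57 in Wip1SH and 11.01, 10.84 and 11 in Wip1SH+ATMi. All 6 arrays with the inhibitor exceeded all 6 without it. TM7SF2 rose 1.59-fold in WT, by 0.67 ± 0.07 (adjusted p = 0.000132), and 1.32-fold in Wip1SH, by 0.40 ± 0.07 (adjusted p = 0.00242). MSMO1, which removes methyl groups from sterol intermediates, gave 9.60, 9.49 and 9.40 in WT, 9.92, 9.84 and 9.79 in WT+ATMi, 9.86, 9.91 and 9.76 in Wip1SH and 9.93, 9.73 and 10.16 in Wip1SH+ATMi. The 3 WT arrays were the lowest. Against WT, MSMO1 was higher in WT+ATMi by 0.35 ± 0.11 (adjusted p = 0.0287), in Wip1SH by 0.35 ± 0.11 (adjusted p = 0.0265) and in Wip1SH+ATMi by 0.44 ± 0.11 (adjusted p = 0.00563). The first was lost without any WT+ATMi array or WT replicate 2 or 3 (adjusted p up to 0.0948) and with the mean of the MSMO1 probes. The second was lost without WT replicate 2 or 3, or Wip1SH replicates 1 or 2 (adjusted p up to 0.0862). The 2 other detected MSMO1 probes were at 0.44 and -0.18 in WT+ATMi against WT.

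SC5D, a sterol desaturase late in the pathway, gave 9.11, 9.21 and 9.20 in WT, 9.34, 9.55 and 9.53 in WT+ATMi, 9.82, 9.70 and 9.77 in Wip1SH and 9.93, 9.70 and 9.96 in Wip1SH+ATMi. WT was lowest, WT+ATMi next, and both Wip1SH groups, which overlapped each other, were highest. SC5D was 1.51-fold higher in Wip1SH than in WT, by 0.59 ± 0.09 (adjusted p = 0.00066), and higher in Wip1SH+ATMi than WT+ATMi by 0.39 ± 0.09 (adjusted p = 0.0096). With the inhibitor SC5D rose by 0.30 ± 0.09 (adjusted p = 0.0299) in WT. That call was lost without any WT array or without WT+ATMi replicates 2 or 3 (adjusted p up to 0.0991). DHCR7, which carries out the last reduction to cholesterol, gave 8.25, 8.34 and 8.55 in WT, 8.32, 8.48 and 8.27 in WT+ATMi, 7.88, 7.94 and 7.96 in Wip1SH and 7.65, 7.96 and 8.04 in Wip1SH+ATMi. Both Wip1SH groups lay below both parental groups. DHCR7 was lower in Wip1SH by 0.45 ± 0.11 (adjusted p = 0.0108) without and by 0.48 ± 0.11 (adjusted p = 0.0115) with the inhibitor. The other DHCR7 probe was at -0.74 and -0.76, and the inhibitor gave -0.02 in WT and -0.04 in Wip1SH.

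EBP, the sterol isomerase, gave 9.70, 9.69 and 9.83 in WT, 9.74, 9.73 and 9.55 in WT+ATMi, 8.78, 9.19 and 9.30 in Wip1SH and 9.39, 9.55 and 9.28 in Wip1SH+ATMi. The Wip1SH arrays were below all WT and WT+ATMi arrays, with replicate 1 the lowest. EBP was lower in Wip1SH than in WT by 0.65 ± 0.13 (adjusted p = 0.00301), and in Wip1SH+ATMi against WT+ATMi the difference was -0.26 ± 0.13 (adjusted p = 0.165). HSD17B7, a ketosteroid reductase of the pathway, gave 9.92, 10.13 and 10.08 in WT, 9.90, 9.89 and 9.68 in WT+ATMi, 9.64, 9.74 and 9.59 in Wip1SH and 9.97, 10.07 and 10.10 in Wip1SH+ATMi. It was high in WT and in Wip1SH+ATMi and lower in the other groups. HSD17B7 was lower in Wip1SH than in WT by 0.39 ± 0.09 (adjusted p = 0.00689) and rose by 0.39 ± 0.09 (adjusted p = 0.00932) with the inhibitor in Wip1SH, while in WT the inhibitor gave -0.22 ± 0.09 (adjusted p = 0.0891). The demethylase CYP51A1 and the dehydrogenase NSDHL passed the threshold in no comparison, with log2 fold changes from 0.01 to 0.18 and from -0.25 to 0.17.

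**Figure D2:**
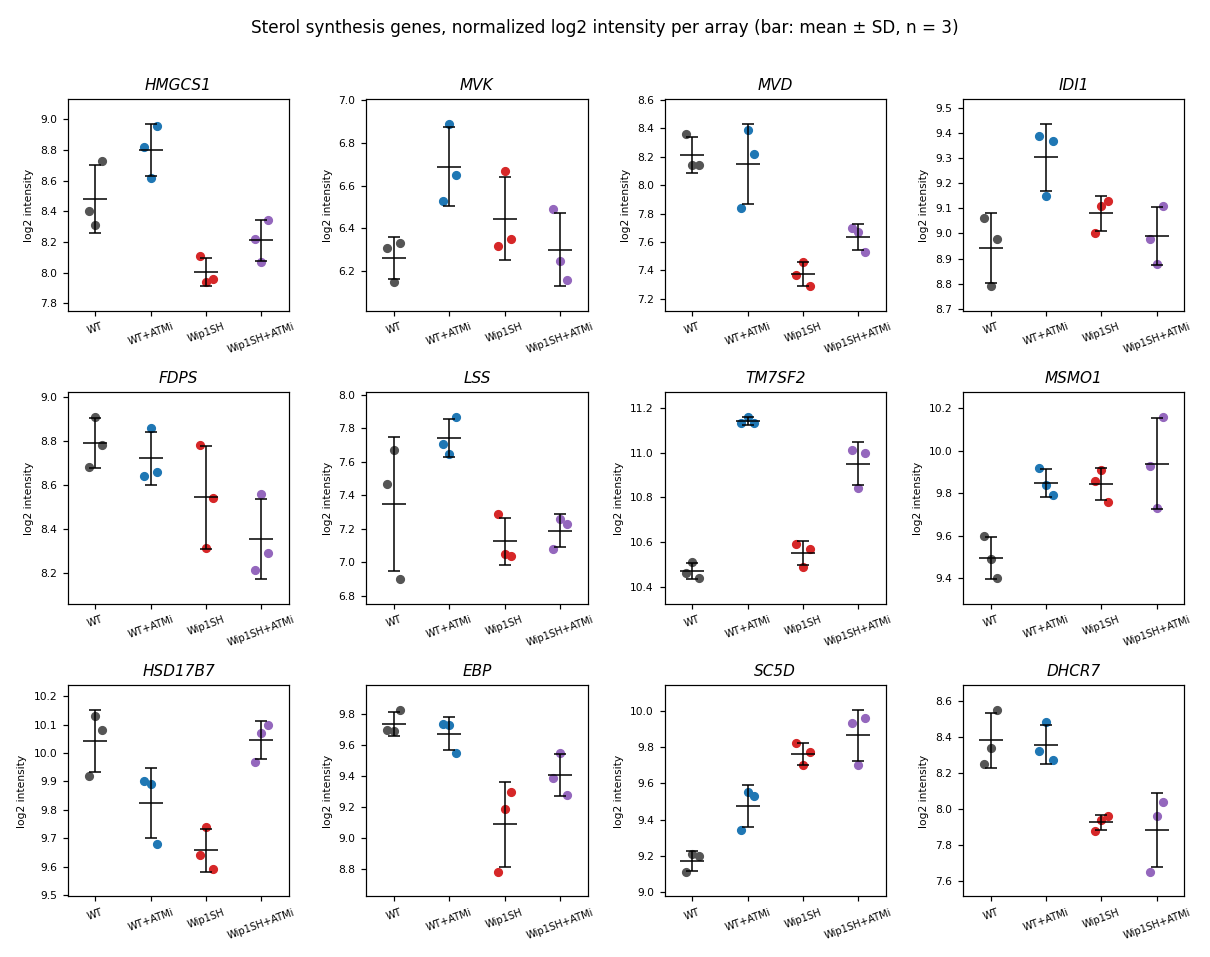
Normalized log2 intensity (vertical axes, each with its own range) of 12 sterol synthesis genes on each of the 12 arrays, by group, with black bars for the mean ± SD of 3 arrays. HMGCS1, MVD and DHCR7 were lower in both Wip1SH groups than in the matching parental groups, TM7SF2 was higher in both inhibitor groups, and SC5D was lowest in WT.

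Among the sterol export genes, ABCA1, the transporter that loads cholesterol onto apolipoprotein, gave 6.23, 6.08 and 6.08 in WT, 7.01, 6.78 and 6.80 in WT+ATMi, 7.61, 7.41 and 7.49 in Wip1SH and 7.22, 7.21 and 7.46 in Wip1SH+ATMi. The groups stood in the order WT, WT+ATMi and then both Wip1SH groups, which overlapped each other. ABCA1 was 2.59-fold higher in Wip1SH than in WT, by 1.37 ± 0.10 (adjusted p = 7.07e-06), the largest difference among the 33 genes in that comparison. It rose 1.66-fold with the inhibitor in WT, by 0.74 ± 0.10 (adjusted p = 0.000493), and in Wip1SH the difference was -0.21 ± 0.10 (adjusted p = 0.152). In Wip1SH+ATMi it was higher than WT+ATMi by 0.43 ± 0.10 (adjusted p = 0.00902).

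MYLIP, the ubiquitin ligase that degrades lipoprotein receptors, gave 8.61, 8.60 and 8.49 in WT, 8.84, 8.75 and 8.80 in WT+ATMi, 9.09, 9.03 and 9.08 in Wip1SH and 9.20, 9.40 and 9.20 in Wip1SH+ATMi. Every Wip1SH array exceeded every WT array, and every Wip1SH+ATMi array every WT+ATMi array. MYLIP was 1.42-fold higher in Wip1SH, by 0.50 ± 0.08 (adjusted p = 0.000662), and higher in Wip1SH+ATMi than WT+ATMi by 0.47 ± 0.08 (adjusted p = 0.00137). With the inhibitor in WT it was 0.23 ± 0.08 (adjusted p = 0.0476), a call lost without any 1 array except Wip1SH+ATMi replicate 2 (adjusted p up to 0.138). ABCG1, the other LXR-driven exporter, passed in no comparison. Its 3 probes that met the detection filter were each missed on several arrays, and the tested one ranged from 5.16 to 6.38.

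The first comparison is of the inhibitor in parental cells, which carry their own Wip1. INSIG1, ABCA1, TM7SF2, SCAP and ACACA rose 1.68-fold, 1.66-fold, 1.59-fold, 1.59-fold and 1.54-fold. Of the 33 genes, 14 rose and none fell by limma (18 and 1 at an unadjusted p under 0.05), where 15.4% of all genes tested rose and 10.0% fell, 25.5% in all. The arrays did not overlap in 18 higher and 1 lower, against 24.4% and 17.2% of all genes. By role, 5 of 17 sterol synthesis genes rose, 3 of 5 SREBP control genes and 4 of 8 fatty acid and glycerolipid genes. Of the 3 sterol transport and LXR target genes (ABCA1, ABCG1 and MYLIP), 2 rose. The median log2 fold change of the 33 was 0.24, against 0.03 over all genes, and 25 of the 33 were above 0. Without WT replicate 2 the number that rose was 9, and without WT+ATMi replicate 3 it was 8. Every array was also scaled to the same median signal over all probes, detected or not, instead of by quantiles (median scaling). This scaling moved the median of all genes to 0.43. It gave 29 that rose, where 59.7% of all genes did, and a median of 0.71 for the 33. Scaling to the median of the tested probes alone gave 11 called, all higher, with 29.6% of all genes called. Adding each array's detected-probe number to the model (detection adjustment) left 1 called, ACACA, with 0.280% of all genes. All 14 kept their direction, with TM7SF2 at 0.72, INSIG1 at 0.67, SCAP at 0.58, SCD at 0.45, FASN at 0.36, IDI1 at 0.11 and MYLIP at 0.14, while the median standard error of the 33 went from 0.10 to 0.21.

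With the same inhibitor in Wip1-depleted cells, SCAP (1.96-fold), SREBF1, LPIN1, TM7SF2, HSD17B7, ACACA and SCD rose and FADS1 fell. These 7 higher and 1 lower of 33 compare with 14.3% of all genes higher and 9.02% lower, 23.3% in all. The arrays did not overlap in 10 higher and 1 lower, against 23.5% and 17.3% of all genes. By role, 2 of 17 sterol synthesis, 2 of 5 SREBP control and 3 of 8 fatty acid and glycerolipid genes rose. None of the 3 sterol transport and LXR target genes passed. The median of the 33 was 0.10, against 0.02 over all genes. The comparisons in WT and in Wip1SH share no array. Both called 6 of the 33 genes higher, namely TM7SF2, SREBF1, SCAP, ACACA, SCD and LPIN1, which is 42.9% of those higher in WT and 85.7% of those higher in Wip1SH. Over all genes these shares were 45.8% and 49.4%. Median scaling (median of all genes 0.15) gave 9 higher and none lower (none at an unadjusted p under 0.05), where 17.8% and 2.42% of all genes were. Detection adjustment left SCAP and ACACA, with 1.35% of all genes called. All 8 kept their direction, with TM7SF2 at 0.44 and FADS1 at -0.08, and the median standard error was 0.17.

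**Figure D3:**
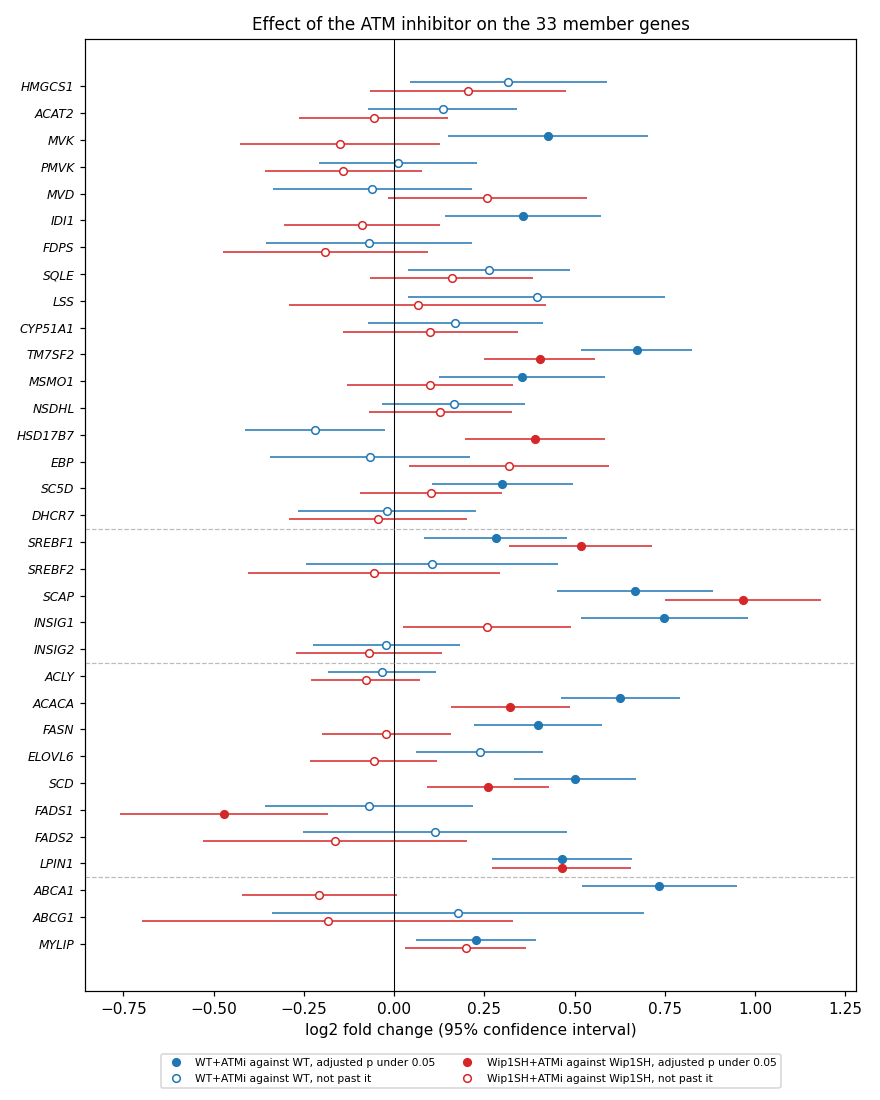
Log2 fold change (horizontal axis) with its 95% confidence interval for the 33 genes with the inhibitor, in parental cells (blue) and in Wip1-depleted cells (red), filled where the adjusted p was under 0.05, with dashed lines between the role groups. The blue points of 14 genes are filled and all lie above 0, while 8 red points are filled, with FADS1 below 0.

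Whether the inhibitor acted differently in the depleted cells was tested by the interaction, the inhibitor's difference in Wip1SH minus that in WT. ABCA1 was past the threshold at -0.94 ± 0.14 (adjusted p = 0.00806) and HSD17B7 at 0.61 ± 0.13 (adjusted p = 0.0256), 1 lower and 1 higher of 33, where 1.21% of all genes were lower and 1.90% higher, 3.11% in all. FASN (-0.42 ± 0.12, adjusted p = 0.0739), INSIG1 (-0.49 ± 0.15, adjusted p = 0.106), MVK (-0.58 ± 0.18, adjusted p = 0.11) and IDI1 (-0.45 ± 0.14, adjusted p = 0.11) came nearest among those that did not pass, and at an unadjusted p under 0.05 there were 9 below 0 and 1 above. Of the 33 interaction values, 28 were below 0, with a median of -0.16, against 6190 of 11785 and -0.02 over all genes. The HSD17B7 call was lost without any 1 of WT replicates 2 and 3, WT+ATMi replicate 3, Wip1SH replicates 1 and 3, and Wip1SH+ATMi replicates 2 and 3 (adjusted p up to 0.065), and after median scaling or detection adjustment. The ABCA1 call was lost under no alternative that was run.

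Depletion of Wip1 without the inhibitor shows how the hairpin cells differ from their parents. MVD (1.79-fold), EBP (1.57-fold), HMGCS1, DHCR7, HSD17B7, FASN, SREBF1, SCAP and ACLY were lower, while SC5D, MSMO1, ABCA1 and MYLIP were higher, ABCA1 by 2.59-fold. Of the 33 genes, 9 were lower and 4 higher, where 15.4% of all genes were lower and 16.8% higher, 32.2% in all. The arrays did not overlap in 14 lower and 7 higher, against 21.3% and 23.6% of all genes. By role, 5 of 17 sterol synthesis genes fell (HMGCS1, MVD, HSD17B7, EBP and DHCR7) and 2 rose. Of the SREBP control genes 2 of 5 fell, and of the fatty acid and glycerolipid genes 2 of 8 fell. Of the 3 sterol transport and LXR target genes, 2 rose (ABCA1 and MYLIP). The median of the 33 was -0.12, against 0.01 over all genes. Median scaling over all probes put the median of all genes at 0.24 and that of the 33 at 0.12. It turned the split to 9 higher and 1 lower (MVD), where 32.4% and 2.90% of all genes were. Scaling to the median of the tested probes alone gave 4 higher and 8 lower, with 32.3% of all genes called. Detection adjustment left SC5D and ABCA1, with 7.52% of all genes called. All 13 kept their direction, with HMGCS1 at -0.64, MVD at -0.64, DHCR7 at -0.47, FASN at -0.35 and MYLIP at 0.44, and the median standard error went from 0.10 to 0.16.

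Depletion was also compared under the inhibitor. FASN (1.68-fold), HMGCS1 (1.5-fold), FADS1 (1.5-fold), INSIG1 (1.48-fold) and LSS were lower, and MYLIP (1.39-fold), ABCA1 and SC5D were higher in Wip1SH+ATMi than WT+ATMi. The counts were 14 lower and 3 higher of 33, where 10.7% of all genes were lower and 10.5% higher, 21.2% in all. The arrays did not overlap in 17 lower and 4 higher, against 19.5% and 20.1% of all genes. By role, 8 of 17 sterol synthesis genes were lower and 1 higher, and 1 of 5 SREBP control genes and 5 of 8 fatty acid and glycerolipid genes were lower. Of the 3 sterol transport and LXR target genes, 2 were higher (ABCA1 and MYLIP). The median of the 33 was -0.25, against 0.01 over all genes. HMGCS1, MVD, DHCR7, ACLY and FASN were lower both with and without the inhibitor, comparisons that share no array: 55.6% of the 9 lower without it and 35.7% of the 14 lower with it, against 41.4% and 59.5% over all genes. SC5D, ABCA1 and MYLIP were higher in both. Median scaling gave 9 lower and 1 higher, where 6.63% and 4.25% of all genes were, and detection adjustment 6 lower and 2 higher, where 5.23% and 4.81% were, with all 17 in the same direction as before.

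**Figure D4:**
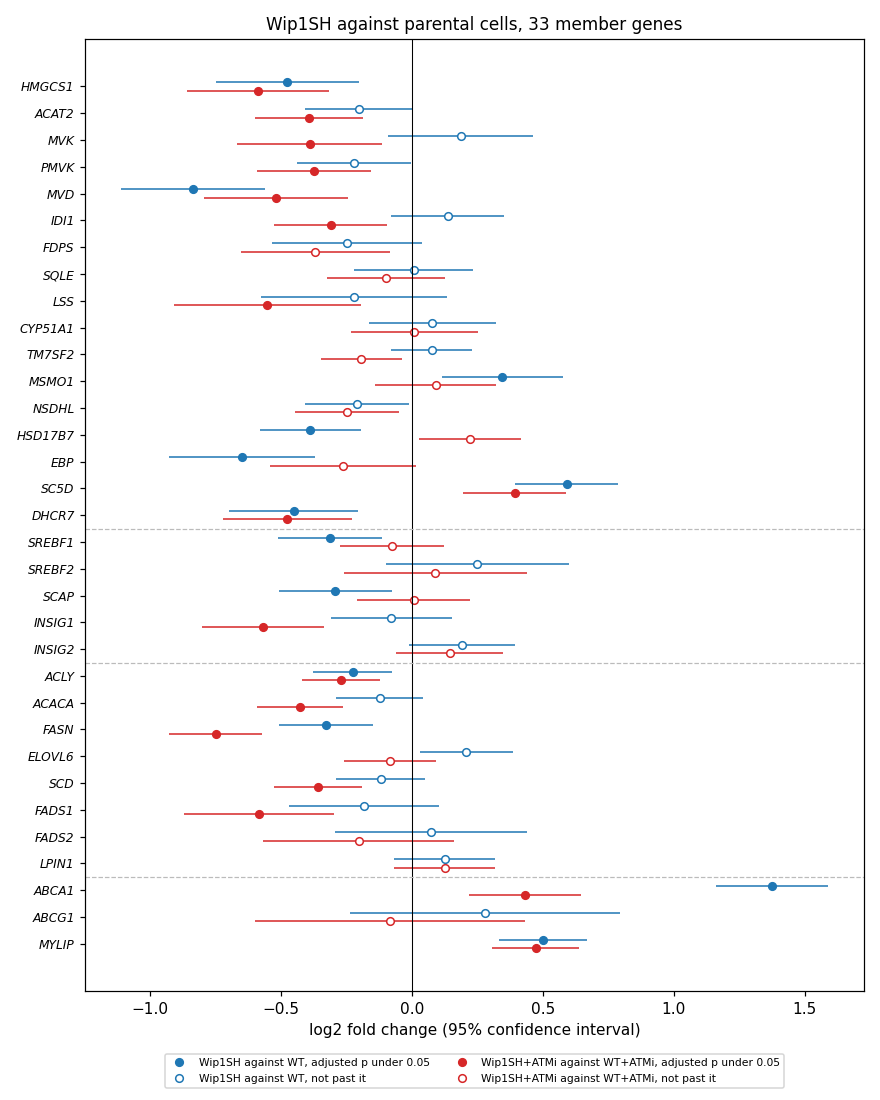
Log2 fold change (horizontal axis) with its 95% confidence interval of Wip1SH over parental cells for the 33 genes, without (blue) and with (red) the inhibitor, filled where the adjusted p was under 0.05, with dashed lines between the role groups. FASN, INSIG1 and ACACA are farther below 0 with the inhibitor, and ABCA1 lies at 1.37 without and 0.43 with it. Of these, only ABCA1 passed the test of the interaction. The other detected ACACA probe, not drawn, was at -0.42 without and -0.30 with the inhibitor.

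The doubly changed cells were last set against untreated parental cells, a comparison that shares both its WT and its Wip1SH+ATMi arrays with those above. Each log2 fold change here is the sum of those of WT+ATMi against WT and of Wip1SH+ATMi against WT+ATMi, so it adds no independent evidence. MYLIP (1.62-fold), ABCA1 (2.25-fold), SC5D, SCAP, LPIN1, TM7SF2 and MSMO1 were higher, and FADS1 (1.57-fold), MVD (1.49-fold), DHCR7, FDPS, PMVK, FASN, ACLY and ACAT2 were lower. These 7 higher and 8 lower of 33 stand beside 23.5% higher and 17.1% lower over all genes, 40.7% in all. The arrays did not overlap in 10 higher and 9 lower, against 28.4% and 21.1% of all genes. The ACAT2 call (-0.26 ± 0.09, adjusted p = 0.0461) was lost without any 1 of 10 arrays (adjusted p up to 0.162), and that of PMVK (-0.36 ± 0.10, adjusted p = 0.0125) without Wip1SH+ATMi replicate 3 (0.0554). Median scaling (median of all genes 0.40) gave 19 higher and none lower, at an adjusted or an unadjusted p under 0.05, where 53.9% and 3.28% of all genes were. Scaling to the median of the tested probes alone gave 7 higher and 9 lower, with 44.5% of all genes called. After detection adjustment none passed by limma (5 higher and 0 lower at an unadjusted p under 0.05), where 0.339% of all genes did. Of the 15, 14 kept their direction then, FADS1 being the exception at 0.0796, and the median standard error was 0.28.

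Of 28 further genes listed for their function in the same pathways, 21 met the detection filter. ACACB met it only through the inhibitor groups and is left out of the counts. With the inhibitor 7 of the other 20 rose and 2 fell in WT, where 25.5% of all genes changed, and 5 rose and 2 fell in Wip1SH, where 23.3% did. RXRA, the partner of the LXR proteins, rose by 0.53 ± 0.08 (adjusted p = 0.00103) in WT and 0.46 ± 0.08 (adjusted p = 0.00243) in Wip1SH, and TMEM97, a sterol-regulated membrane protein gene, by 0.48 ± 0.08 (adjusted p = 0.00138) and 0.32 ± 0.08 (adjusted p = 0.0124). Another TMEM97 probe, detected on all 12 arrays and not tested, was at -0.05 and 0.14. GPAM, an acyltransferase of glycerolipid synthesis, rose by 0.40 ± 0.08 (adjusted p = 0.00324) and 0.52 ± 0.08 (adjusted p = 0.000851), and ACSS2, which makes acetyl-CoA from acetate, by 0.29 ± 0.09 (adjusted p = 0.0273) and 0.40 ± 0.09 (adjusted p = 0.00661). The other probes of GPAM and ACSS2 detected on all 12 arrays were at 0.68 and 0.22, and at 0.46 and 0.47. SCARB1, a lipoprotein receptor gene, fell by 0.40 ± 0.08 (adjusted p = 0.00513) and 0.46 ± 0.08 (adjusted p = 0.00263), and the elongase ELOVL1 by 0.40 ± 0.10 (adjusted p = 0.0155) and 0.51 ± 0.10 (adjusted p = 0.00533). ACACB, the mitochondrial relative of ACACA, was not above background on any WT or Wip1SH array. Its level with the inhibitor was at least 1.20-fold higher in WT and came to 1.05-fold in Wip1SH. Both values take the lowest signal detected on each untreated array as the upper limit there. In Wip1SH+ATMi it was detected on 2 of 3 arrays, so the 1.05-fold value includes an array below detection. NR1H3, which encodes an LXR, rose by 0.44 ± 0.09 (adjusted p = 0.00639) in Wip1SH, and NPC2, ELOVL5 and ERLIN2 rose in WT, by 0.32 ± 0.08 (adjusted p = 0.0101), 0.33 ± 0.09 (adjusted p = 0.0189) and 0.40 ± 0.11 (adjusted p = 0.0184). The other ERLIN2 probes that met the filter, each detected on 9 arrays, were at -0.06 and 0.13.

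On depletion without the inhibitor, 4 of these 20 were higher and 2 lower, where 16.8% and 15.4% of all genes were. The lysosomal cholesterol carriers split, NPC1 being higher by 0.58 ± 0.08 (adjusted p = 0.000455) and NPC2 lower by 0.71 ± 0.08 (adjusted p = 8.02e-05). ERLIN2, an endoplasmic reticulum protein of sterol control, GGPS1, the geranylgeranyl diphosphate synthase, and ME1, the malic enzyme, were higher by 0.75 ± 0.11 (adjusted p = 0.000467), 0.38 ± 0.07 (adjusted p = 0.00193) and 0.27 ± 0.08 (adjusted p = 0.0192), and SCARB1 was lower by 0.35 ± 0.08 (adjusted p = 0.00843). The other ERLIN2 probes were at -0.05 and 0.22. Under the inhibitor 5 were higher and 3 lower in the depleted cells, where 10.5% and 10.7% of all genes were, with NPC2 lower by 1.06 ± 0.08 (adjusted p = 6.04e-06), or 2.09-fold. Against untreated WT, the doubly changed cells had 8 higher and 3 lower, where 23.5% and 17.1% of all genes were, and the interaction passed in none of the 20 by limma (2 at an unadjusted p under 0.05, both below 0).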

How the data were processed

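Gene expression was measured in 12 cultures of HCT116 cells, 3 per group, from biotin-labelled cRNA on 1-colour Illumina bead arrays. The deposited probe signals are intensity values with no normalization across arrays, and a detection p-value against each array's negative controls is deposited beside each, per the file headers. The authors also deposited log2 values, whose method no source used here states. They lay within 5e-06 of the normalized values made here.

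Signals were normalized with neqc of limma 3.58.1 in R 4.3.3 (background from the detection p-values, offset 16, quantile normalization). Of 47323 probes, 30113 carried 1 symbol, 8 several and 17202 none here. Symbols were updated through the entrez identifiers, of which 30074 matched the reference table. Probes with a detection p under 0.05 on 3 arrays were kept (15772), and the brightest stood for a gene, which left 11785 genes and 33 of the 36 named here. Of these 33, 10 had several kept probes. A model with a mean for each group (lmFit and eBayes, 12 arrays) gave 5 differences and the interaction, tested two-sided. A member is printed array by array if it passed the threshold in any of the 6 and had a log2 fold change of at least 0.4 in size in any of them, and SREBF1 and SREBF2 in any case. The members and lists were chosen with earlier results of these data known. The replicates are called biological in the study description, with nothing on how they were grown apart. The p-values set each difference against the spread between these samples, and how independent the samples are is not known.

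Alternatives were other background corrections, median scaling over all or over the tested probes, other detection filters, the mean of probes, weights per array, the replicate block, fits to the compared groups alone, detection adjustment, the deposited values, and each array left out in turn. The scripts were tested on simulated data for Wip1SH against WT, with 200 of 11785 genes changed. Changes of 1 on the log2 scale were recovered in 92% and changes of 0.5 in 52%, with 13 false calls among 157. The real comparison called 3794 genes, so its threshold corresponds to a less strict unadjusted p. The simulated errors were also independent between genes and arrays. The recovered shares are therefore a check of the scripts and do not give the power in these data. A gene that did not pass the threshold may still differ.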

Additional observations from a re-analysis of the deposited data

Results flagged for a closer look

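Among the 33 genes, 2 responded to the inhibitor differently in the depleted and the parental cells by the test of the difference itself. ABCA1 rose in WT and not in Wip1SH, where it was already high, and the inhibitor's difference in Wip1SH minus that in WT was -0.94 ± 0.14 (SE; adjusted p = 0.00806, limma). HSD17B7 was 0.61 ± 0.13 (adjusted p = 0.0256), with the 3 Wip1SH+ATMi arrays above the 3 Wip1SH arrays and the 3 WT+ATMi arrays below the 3 WT arrays. In WT alone the inhibitor's difference in HSD17B7 was -0.22 and did not pass the threshold. The HSD17B7 interaction call was lost under 9 of 23 alternatives and that of ABCA1 under none. With 3 arrays per group, single arrays were not tested as outliers.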

How the results depend on the processing

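Of 69 calls over the 33 genes and 6 comparisons, the alternatives gave 1654 values, of which 1427 kept direction and call, 219 kept direction and lost the call, and 8 turned sign. Not all of these values were free to move. The deposited values are nearly identical to those made here. Leaving out an array of a group not compared changes only the spread and leaves the log2 fold change as it was. The 1427 therefore overstate how far the calls were tried. After median scaling over all probes, SCAP (0.00716) and ACLY (0.045) in Wip1SH against WT turned sign, as did ACAT2 (0.20), PMVK (0.0992), FDPS (0.0208), ACLY (0.13) and FASN (0.0127) in Wip1SH+ATMi against WT. FADS1 turned to 0.0796 there after detection adjustment. Counts of genes past the threshold that moved by more than 1.5 times were as follows, and the cause was not tested. Detection adjustment gave 2 in Wip1SH against WT, 1 in WT+ATMi against WT, 2 in Wip1SH+ATMi against Wip1SH, 8 in Wip1SH+ATMi against WT+ATMi, 0 in Wip1SH+ATMi against WT and 1 in the interaction, in place of 13, 14, 8, 17, 15 and 2. The number of detected probes differs between the groups, so that adjustment removes group differences too. Median scaling over all probes gave 29 in WT+ATMi against WT and 10 in Wip1SH+ATMi against WT+ATMi, and no background correction gave 4 in the interaction. Median scaling over the tested probes moved no count that far, with 12, 11, 7, 16, 16 and 2 in the order above. Over all genes it called 32.3%, 29.6%, 23.4%, 21.9%, 44.5% and 3.31%. Leaving out each array in turn gave 10 to 14, 8 to 15, 6 to 9, 13 to 17, 13 to 16 and 1 to 2 in the same order.

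For same-numbered arrays of different groups, the correlation of their deviations over genes exceeded 0.1 in 3 of 18 pairs (range -0.0819 to 0.141). Differently numbered pairs ranged from -0.138 to 0.151. By replicate number, WT with Wip1SH gave 0.0607, 0.0714 and 0.141, and WT+ATMi with Wip1SH+ATMi gave 0.0484, 0.125 and 0.113. The other same-numbered pairs ran from -0.0819 to 0.058. Whether same-numbered arrays share a culture day or batch is not stated and was not tested. The replicate block gave 12, 13, 8, 16, 16 and 2 genes past the threshold, all within 1.5 times of the counts without it. No slide is given in the headers, so a slide block was not run, and the interaction has no fit to the compared groups alone. SREBF2, FADS2 and ABCG1 lie near background, which limits their values.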
